A study of Mus musculus with 4 samples.

Results

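The anaphase-promoting complex and the genes that work with it were examined as 10 listed genes of the 19938 measured in splenic cDC2. They comprised 3 subunits (Anapc1, Anapc4 and Cdc27), both activators (Cdc20 and Fzr1), both ubiquitin-conjugating enzymes (Ube2c and Ube2s), the inhibitor Fbxo5, the substrate Pttg1 and the protease Espl1 that Pttg1 restrains. Members were taken by symbol, from probe sets annotated to that symbol alone, with the brightest probe set standing for a gene. cDC2 are conventional dendritic cells known for presenting antigen to CD4 T cells, and here they came from the spleens of chimeric mice by flow sorting, although the design text also mentions bone marrow. The WT group held 2 arrays from Zbtb46-GFP chimeric mice and the Id2 KO group held 2 arrays from Id2 KO Zbtb46-GFP chimeric mice. All 4 arrays therefore come from chimeras with a green fluorescent reporter of Zbtb46, a transcription factor gene of conventional dendritic cells. Mouse age, the cells the hosts kept and the deleted part of Id2 were not given in the sources used here, and the labels do not say whether replicates were separate mice, which means that the p-values cover only the variation among these arrays, and that variation may be technical. The study set out to obtain expression signatures of both genotypes.

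The anaphase-promoting complex is a ubiquitin ligase of many subunits that marks proteins for the proteasome so that cells can separate their chromosomes and leave mitosis. Cdc20 directs it in mitosis once the spindle checkpoint is satisfied, and the product of Fzr1, named Cdh1, takes over in late mitosis and keeps it active in G1 phase. Its best-known mitotic target is securin, the product of Pttg1, whose destruction frees separase, the product of Espl1, to cut the cohesin rings that hold sister chromatids together. Cdc20 and most of the substrates are made in proliferating cells in S phase, G2 phase and mitosis, whereas the complex subunits are also present in resting cells.

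Before the results, the whole set of arrays calls for some facts. Median intensities ran from 128.4 to 134.4 over the 4 arrays. Id2 itself, on the log2 intensity scale, gave 9.14 and 9.08 for the WT pair against 8.71 and 8.97 for the knockout-labelled pair, a difference of -0.27 that did not pass (limma, adjusted p = 0.172), so the knockout label was not checked by this probe set. Xist differed by -5.28 and the Y-linked gene Kdm5d by 2.66 between the groups. The sex that these genes mark thus splits with genotype, and sex and genotype cannot be told apart for any gene here. Of 10 listed markers of conventional dendritic cells and cDC2, 3 fell (Zbtb46 by 1.02, Itgam by 1.00 and Cd4 by 0.84) and 7 did not pass. Among the latter, Itgax lay between 12.81 and 12.86 on the 4 arrays, and the differences were 0.11 for Flt3, -0.03 for H2-Ab1, -0.02 for Cd74, -0.18 for Irf4, -0.23 for Sirpa and -0.29 for Clec4a4. All 11 listed neutrophil markers fell, with summed intensities of 17771.7 and 18430 in WT against 1464.1 and 2382.3 in Id2 KO, and 8 of 9 tested B cell markers rose, with sums of 1424.2 and 1392.5 against 2598 and 3054.9. Of the 5 tested monocyte markers 4 fell, of the 5 red pulp macrophage markers 3 fell, and both tested erythroid markers fell. Of 6 plasmacytoid dendritic cell markers 3 rose, namely Ly6d (1.31), Spib (1.07) and Siglech (0.56). The others, Bst2 (0.04), Tcf4 (-0.07) and Ccr9 (-0.16), did not pass. Among 4 tested T and NK cell markers Il7r rose, among 4 cDC1 markers Tlr3 fell, and of 5 tested progenitor markers Myb rose and Mpo, also a neutrophil marker, fell. Their part in the results below was not tested.

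Most members that control mitosis had higher levels in Id2 KO than in WT, while securin did not. Of the 10 members, all above the intensity filter and all tested, 6 rose, none fell and 4 did not pass, with a median log2 difference of 0.53 against 0.01 over all 11963 tested genes. Without WT replicate 1 the count was 3 of 10, and without Id2 KO replicate 1 it was 4. Over all tested genes 8.04% were called by the same rule, limma with an adjusted p under 0.05, namely 5.53% higher and 2.52% lower. These 962 genes became 459 without WT replicate 1 and 627 without WT replicate 2. Those shares came from 661 higher and 301 lower genes, and from 573 higher and 470 lower when each array was centred on the median over tested genes (added once the data had been seen), with the same count of 6 higher and 0 lower members. In 9 members both arrays labelled Id2 KO lay above both WT arrays, and in Pttg1 both lay below. Such separation was found in 27.9% of tested genes in the upward direction and 22.8% in the downward direction. In a bulk sort, fewer cells of a type and less RNA per cell cannot be told apart.

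**Figure D1:**
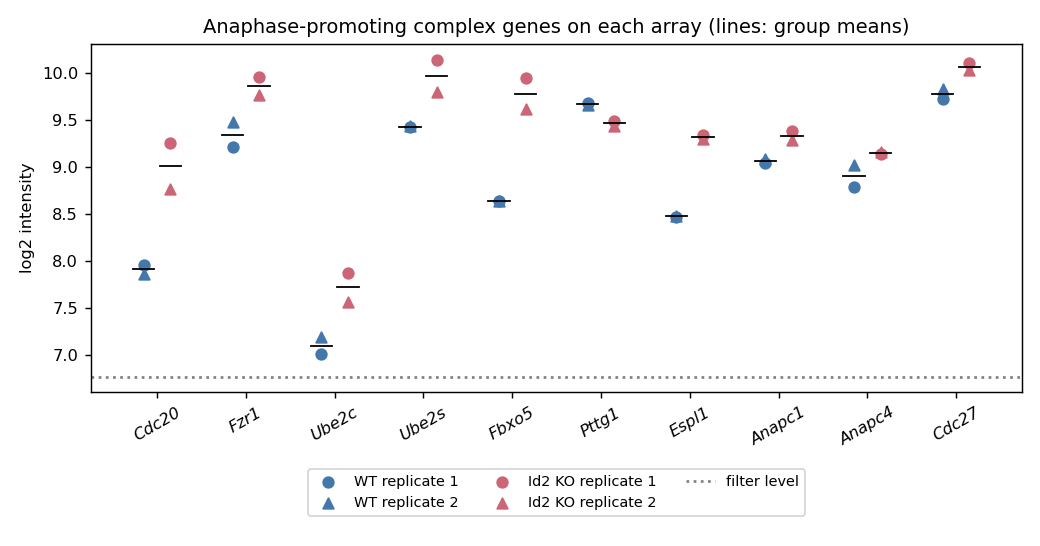
Log2 intensity of the 10 member genes on each of the 4 arrays, circles for replicate 1 and triangles for replicate 2, blue for WT and red for Id2 KO, with short lines at the group means and a dotted line at the filter level of 6.77. Heights are comparable within a gene only; for 9 genes the red symbols lie above the blue ones, and for Pttg1 they lie below.

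The promoter windows of 5 members are shown because 4 of these genes rose and hold a pair of sequence elements known from mitotic genes, and because Pttg1 is the member whose difference was below 0. The cell cycle genes homology region, or CHR, is the element through which the MuvB complexes silence genes in resting cells and switch them on in G2 phase and mitosis, and CCAAT boxes, bound by NF-Y, usually stand upstream of it. Sequences are from RefSeq on GRCm38.p6, 250 bases before to 50 after the annotated start, written 5′ to 3′ on the gene's strand. Capitals mark CHR letters (TTTGAA or TTCGAA, either strand) and CCAAT letters (either strand).
Cdc20 (chr4:118437294-118437593, minus strand): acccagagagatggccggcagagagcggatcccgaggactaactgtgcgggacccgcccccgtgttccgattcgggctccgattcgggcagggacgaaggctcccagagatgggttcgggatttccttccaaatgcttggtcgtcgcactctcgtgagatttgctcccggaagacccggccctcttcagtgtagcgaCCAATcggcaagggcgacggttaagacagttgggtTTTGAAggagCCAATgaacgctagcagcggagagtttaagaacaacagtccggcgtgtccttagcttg
Ube2c (chr2:164769679-164769978, plus strand): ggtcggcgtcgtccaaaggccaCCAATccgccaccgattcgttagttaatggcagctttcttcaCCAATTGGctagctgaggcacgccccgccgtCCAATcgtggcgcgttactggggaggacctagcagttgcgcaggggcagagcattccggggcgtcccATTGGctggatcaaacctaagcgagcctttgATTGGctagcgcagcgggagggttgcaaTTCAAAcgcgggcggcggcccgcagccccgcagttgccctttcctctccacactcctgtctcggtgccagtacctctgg
Fbxo5 (chr10:5805416-5805715, minus strand): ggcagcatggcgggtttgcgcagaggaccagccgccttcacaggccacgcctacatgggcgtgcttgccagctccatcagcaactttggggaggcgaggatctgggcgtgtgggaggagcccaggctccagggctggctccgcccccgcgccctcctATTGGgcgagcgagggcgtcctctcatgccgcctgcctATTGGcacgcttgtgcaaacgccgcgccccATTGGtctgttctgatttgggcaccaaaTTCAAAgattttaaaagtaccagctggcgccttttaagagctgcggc
Espl1 (chr15:102296043-102296342, plus strand): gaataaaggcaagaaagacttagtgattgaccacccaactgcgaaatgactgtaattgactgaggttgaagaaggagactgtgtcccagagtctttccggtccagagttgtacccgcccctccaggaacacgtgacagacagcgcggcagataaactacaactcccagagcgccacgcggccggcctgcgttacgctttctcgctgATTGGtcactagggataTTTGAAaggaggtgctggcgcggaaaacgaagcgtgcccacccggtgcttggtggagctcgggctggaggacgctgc
Pttg1 (chr11:43425932-43426231, minus strand): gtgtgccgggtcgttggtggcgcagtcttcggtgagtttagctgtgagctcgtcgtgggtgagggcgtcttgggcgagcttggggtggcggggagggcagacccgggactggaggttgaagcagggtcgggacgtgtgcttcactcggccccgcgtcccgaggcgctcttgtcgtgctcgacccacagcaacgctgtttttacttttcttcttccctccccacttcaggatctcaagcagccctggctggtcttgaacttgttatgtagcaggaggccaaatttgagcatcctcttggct

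All 10 members had a window in the table. CHR letters were found in 5 of the 10 (Cdc20, Ube2c, Ube2s, Fbxo5 and Espl1) against 19.2% of 32851 windows of the same length, and CCAAT in 6 against 37.4%. Cdc20, Ube2c, Fbxo5 and Espl1 held both, as did 7.52% of all windows. Fzr1 and Ube2s rose without the pair, Fzr1 with CCAAT letters alone and Ube2s with CHR letters alone. Cdc27, which did not pass, held CCAAT letters without CHR letters. The windows printed were chosen by the rise and the pair together, and a link between them was not tested. The CHR match began 18 bases before the annotated start in Cdc20 (position -18), at -29 in Ube2c, at -27 in Espl1, at position 4 after the start in Fbxo5 and at -162 in Ube2s. The E-box CANNTG, the general sequence that E proteins recognise, was present in 5 members against 72.3% of windows, and none of the 10 held the E2F letters TTTGGCGC, TTTCCCGC, TTTGCCGC or TTTCGCGC, which 2.26% of windows hold on either strand. None of these motifs overlaps another in Cdc20 or Espl1. In Ube2c a CCAAT pair overlaps itself on opposite strands and an E-box. The Pttg1 window starts at an annotated start inside the gene, which may not be the one these cells use. No motif of the 4 kinds was found in its letters, which says nothing of the sequence before other starts of Pttg1. A match describes the letters and no binding was measured.

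Of the activators, Cdc20 had the larger difference. On the log2 intensity scale Cdc20 read 7.96 and 7.86 on the WT arrays, against 9.26 and 8.76 on the Id2 KO arrays. Both values of the second group were above both of the first, and KO replicate 1 was the higher of them. The rise was 1.10 on the log2 scale, or 2.14-fold (95% interval 0.77 to 1.42 on the log2 scale, n = 2 per group, limma adjusted p = 0.00167), the position 116 from the top among 11963 differences. Fzr1, which encodes Cdh1, read 9.21 and 9.48 on the WT arrays, against 9.96 and 9.76 for Id2 KO. The groups did not overlap, and WT replicate 1 was the lowest array. Fzr1 rose by 0.52, or 1.43-fold (95% interval 0.27 to 0.76, adjusted p = 0.0215), a call that was lost without WT replicate 1 (adjusted p = 0.178) and without Id2 KO replicate 1 (adjusted p = 0.0815). The log2 ratio of Cdc20 to Fzr1 within an array, of which the change but not the level can be read across probe sets, was higher by 0.58 in Id2 KO without overlap of the groups. Yet 2 arrays against 2 cannot give an exact two-sided permutation p below 0.333, which is the value it gave.

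The inhibitor rose about as much as Cdc20. Fbxo5 encodes Emi1, which blocks the complex from S phase to early mitosis so that cyclins can build up. Its log2 intensity was 8.64 on both WT arrays, against 9.94 and 9.62 for Id2 KO. The WT arrays were nearly equal and both others lay about a log2 unit above them. Fbxo5 rose by 1.14, or 2.20-fold (95% interval 0.89 to 1.39, adjusted p = 3.22e-04), at position 107 among the tested genes. Its difference was above that of Cdc20 with all arrays but below it without WT replicate 1 (1.14 against 1.15) and without Id2 KO replicate 2 (1.30 against 1.35). The ratio of Fbxo5 to Cdc20 changed by 0.04 with overlapping groups (exact permutation p = 0.667), whereas that of Fbxo5 to Fzr1 changed by 0.62 without overlap (exact permutation p = 0.333, the smallest possible).

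The ubiquitin-conjugating enzymes rose by similar amounts. Ube2c starts ubiquitin chains on substrates of the complex, and it lay at 7.01 and 7.19 in WT, against 7.87 and 7.56 in Id2 KO. It rose by 0.62, or 1.54-fold (95% interval 0.36 to 0.88, adjusted p = 0.0116), and its call was lost without WT replicate 1 (adjusted p = 0.1). Ube2s, which lengthens those chains, lay at 9.42 and 9.44 in WT, against 10.14 and 9.80 in Id2 KO. In both genes the groups did not overlap and KO replicate 1 was the highest array. Ube2s rose by 0.54, or 1.45-fold (95% interval 0.28 to 0.80, adjusted p = 0.0196), but not without WT replicate 1 (adjusted p = 0.116), without WT replicate 2 (0.0847) or without Id2 KO replicate 1 (0.0578). It was the member with 2 probe sets, and the other differed by 0.52, with 9.18 and 9.22 in WT, against 9.85 and 9.59 in Id2 KO. The ratio of Ube2c to Ube2s changed by 0.08 with overlapping groups.

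Securin and separase, which act as a pair, did not move together. Espl1 lay at 8.47 and 8.48 in WT, against 9.34 and 9.30 in Id2 KO. The arrays of a group lay close together and the groups were far apart. Espl1 rose by 0.85, or 1.80-fold (95% interval 0.67 to 1.03, adjusted p = 2.79e-04). Pttg1 lay at 9.69 and 9.66 in WT, against 9.49 and 9.44 in Id2 KO, so both arrays labelled Id2 KO were the lower ones. The difference of -0.21 (95% interval -0.39 to -0.03 before adjustment) did not pass (adjusted p = 0.171, with a range over the alternatives from 0.0699 to 0.547). Its interval does not reach the lower bound of the interval of any of the 6 members that rose. The ratio of Espl1 to Pttg1 was -1.22 and -1.18 in WT, against -0.15 and -0.14 in Id2 KO, a change of 1.06 without overlap. The ratios to Pttg1 of Fbxo5 (1.35), Cdc20 (1.31) and Ube2s (0.75) changed without overlap, each at the smallest possible exact permutation p of 0.333. For Espl1 and these genes the separation of the ratio was fixed in advance. Pttg1 was lower and each of them higher on both arrays labelled Id2 KO. The ratios share Pttg1 and add no support beyond the values of the single genes. Pttg1 was measured by a single probe set.

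**Figure D2:**
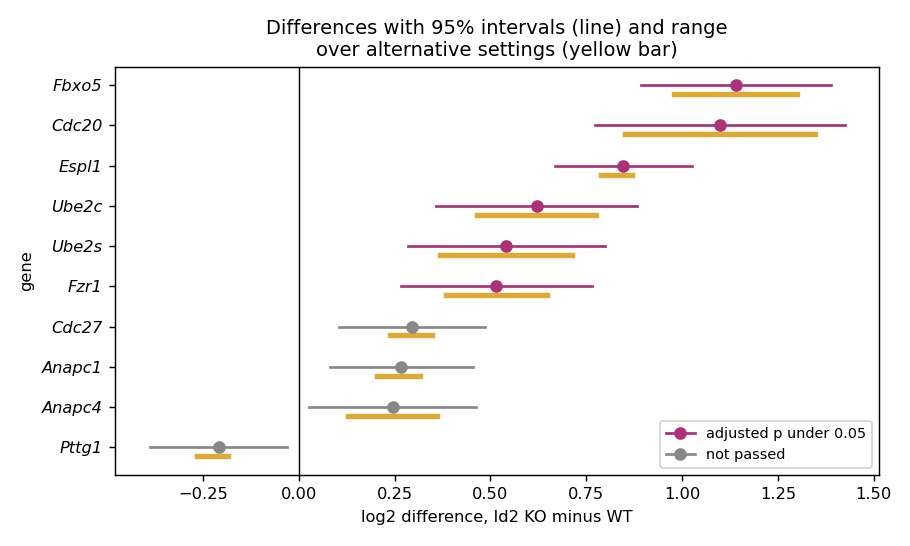
Log2 differences, Id2 KO minus WT, of the 10 members in order of size, with 95% intervals from limma as lines and the range of the value over the alternative settings as yellow bars; purple marks an adjusted p under 0.05 and grey the rest. Fbxo5 (1.14), Cdc20 (1.10) and Espl1 (0.85) lie highest, the 3 subunits lie between 0.25 and 0.30, and Pttg1 (-0.21) is the member below 0.

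The 3 subunits among the members were slightly higher and did not pass. Anapc1 encodes the largest scaffold subunit and lay at 9.05 and 9.09 in WT, against 9.38 and 9.28 in Id2 KO, a difference of 0.27 (95% interval 0.08 to 0.45, adjusted p = 0.0921). Anapc4, a platform subunit, lay at 8.79 and 9.02 in WT, against 9.14 and 9.17 in Id2 KO, a difference of 0.25 (0.03 to 0.46, adjusted p = 0.187). Cdc27, whose product binds the tails of the activators, lay at 9.72 and 9.83 in WT, against 10.11 and 10.03 in Id2 KO, a difference of 0.30 (0.11 to 0.49, adjusted p = 0.0709). In each of the 3 genes both arrays labelled Id2 KO lay above both WT arrays, a separation that 27.9% of tested genes share. The ratio of Cdc20 to Cdc27 changed by 0.80 and that of Fzr1 to Cdc27 by 0.22, both without overlap. Each had an exact permutation p of 0.333, the smallest possible. For Fzr1 to Cdc27 the groups lay close, at -0.51 and -0.35 in WT against -0.15 and -0.27 in Id2 KO. In simulations with 2 arrays a group the test recovered 9.8% of genes changed 1.25-fold and 84.3% of genes changed 1.5-fold. The subunits' differences of 1.23-fold (Cdc27), 1.20-fold (Anapc1) and 1.19-fold (Anapc4) lie below both sizes. The simulations changed 200 genes with noise drawn from the fitted model, whereas 962 genes passed in the data. The simulated shares therefore need not hold for these subunits.

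The arrays labelled Id2 KO differed between themselves. In 9 of the 10 members KO replicate 1 was above KO replicate 2, by a median of 0.15 over the 10, and Anapc4 was the exception (-0.03). The gap was 0.49 in Cdc20, 0.34 in Ube2s, 0.32 in Fbxo5, 0.31 in Ube2c and 0.19 in Fzr1, but 0.04 in Espl1 and 0.05 in Pttg1. Over all tested genes 6631 of 11963 were higher in KO replicate 1, with a median gap of 0.02. The gap was not particular to the members. Of the lists described below, all 31 tested substrates were higher in KO replicate 1 (median gap 0.32), as were 14 of 18 regulators and 9 of 11 other subunits. Of the tested markers, 0 of 9 for B cells and 3 of 11 for neutrophils were higher there. Against the WT mean, Cdc20 stood at 1.35 in KO replicate 1 and 0.85 in KO replicate 2, while Espl1 stood at 0.87 and 0.82. With each array left out in turn, the calls of Cdc20, Fbxo5 and Espl1 held. They were the 3 of the 6 that remained when WT replicate 1 was absent.

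**Figure D3:**
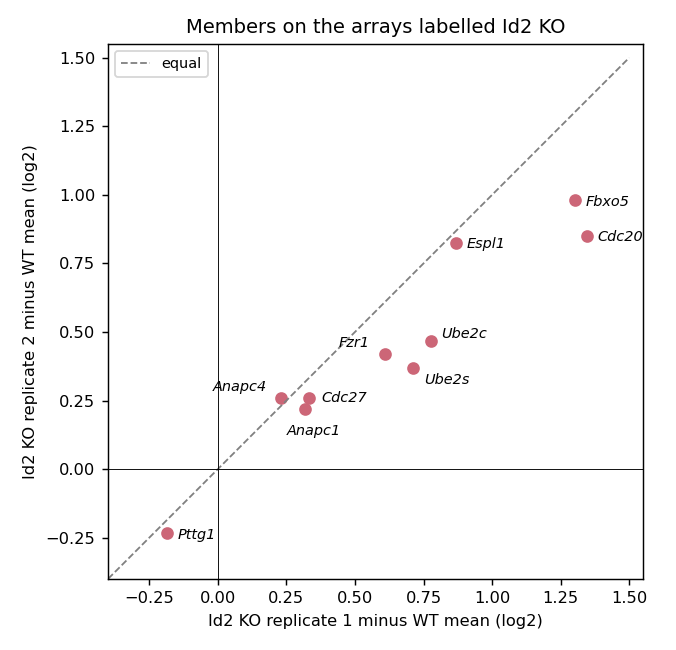
Log2 intensity of each member on KO replicate 1 (horizontal axis) and KO replicate 2 (vertical axis), each minus the mean of the WT arrays; the dashed line marks equal values. Cdc20 (1.35 and 0.85) lies farthest below the line, Espl1 (0.87 and 0.82) lies near it, and Pttg1 (-0.18 and -0.23) is the point below 0 on both axes.

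Of 11 other subunits of the complex, all tested, 2 rose and none fell, with a median difference of 0.20, where 5.53% of all tested genes were called higher. In 8 of the 11 both arrays labelled Id2 KO lay above both WT arrays, against 27.9% of tested genes. The 2 that rose were Anapc5, a platform subunit (0.49, adjusted p = 0.0173), and Anapc15, which helps release Cdc20 from the checkpoint complex (0.41, adjusted p = 0.0246). Neither held throughout: Anapc5 was lost without WT replicate 1 (adjusted p = 0.14) and without Id2 KO replicate 1 (0.0668), and Anapc15 without either of these (0.0963 and 0.108) or WT replicate 2 (0.143). The brightest of 5 Anapc5 probe sets was used, and the others differed by between 0.13 and 0.26. The other Anapc15 probe set differed by 0.46. The catalytic pair, the cullin-like Anapc2 (0.40, adjusted p = 0.0534) and the RING protein Anapc11 (0.37, adjusted p = 0.125), did not pass, nor did Cdc23 (0.38, adjusted p = 0.0915). The substrate receptor Anapc10 (-0.05) and Cdc26 (-0.15), which steadies Cdc16, were the members of this list below 0.

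The tested regulators of the complex differed by between -0.05 and 1.92 on the log2 scale. Of 21 listed genes 18 were tested, 8 rose and none fell, with a median of 0.29, where 5.53% of all tested genes were called higher. Of the 8, Mastl and Ttk had WT means below the filter level (6.40 and 6.43) and were tested through their level in Id2 KO. Both stand in the count and in the median, and the sizes of their differences are not settled. With no filter 8 of the 21 passed, with a median of 0.24. The spindle checkpoint holds Cdc20 inactive until all chromosomes are attached, and of its genes Bub1 rose by 1.60 (adjusted p = 7.21e-05), Bub1b, which encodes BubR1, by 1.26, Mad2l1, the Cdc20-binding Mad2, by 1.26 and the kinase gene Ttk by 1.04. Bub1b lay at 7.73 and 7.90 in WT, against 9.28 and 8.87 in Id2 KO. Bub3 (0.30, adjusted p = 0.0852) and Mad1l1 (0.11, adjusted p = 0.557) did not pass. Trip13, an ATPase that takes the checkpoint complex apart, rose by 0.94, whereas its adaptor Mad2l1bp differed by -0.05. The mitotic kinase genes Plk1 (1.61), Cdk1 (1.25) and Mastl (1.92) rose as well. Of the deubiquitinase genes, Usp37 (0.28, adjusted p = 0.287) did not pass and Usp44 and Otud7b lay below the filter, as did Fbxo43, which encodes the Emi2 inhibitor of the egg. The general ubiquitin-conjugating enzyme genes Ube2d1 and Ube2d3 differed by 0.09 and 0.10 and did not pass. All 8 called regulators kept their calls with each array left out.

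The transcripts of other reported substrates were nearly all higher. Of 33 listed genes 31 were tested, 30 rose and none fell, with a median difference of 1.30, where 5.53% of all tested genes were called higher, and Cdc25a (0.27, adjusted p = 0.182) was the one that did not pass. Ccnb1 and Cdkn1a had no probe set annotated to them alone and were not analysed here. The mitotic cyclin gene Ccna2, whose protein the complex destroys in prometaphase, lay at 8.41 and 8.45 in WT, against 10.24 and 9.89 in Id2 KO, a rise of 1.63 (adjusted p = 8.27e-05), and Ccnb2 rose by 1.30. The largest rises in the list were those of Anln (1.86), a scaffold of the cleavage furrow, and the microtubule-binding Nusap1 (1.77), with values of 1.73 for Hmmr and 1.71 for Prc1. Hmmr, Prc1, Cenpf and Ckap2 had WT means below the filter level (6.37, 6.39, 6.53 and 6.48). These 4 genes were tested through their level in Id2 KO, so the sizes of their differences are not settled. All 4 stand in the count of 30 and in the median. With no filter the count was again 30 of 31. Genes of the chromosomal passenger complex, Aurkb (1.51) and Birc5 (1.57), rose more than the spindle kinase gene Aurka (1.02) in value, a difference that was not tested. Among the substrates that Cdh1 removes in G1 phase and that act in DNA replication, the rises were 1.09 for Rrm2, 0.76 for the replication inhibitor gene Gmnn, 0.62 for Tk1 and 0.61 for the origin-licensing gene Cdc6. Among spindle and kinetochore substrates the rises were 1.45 for Kif22, 1.40 for Dlgap5, 1.20 for Kif18a, 1.19 for Cenpf, 1.16 for Tpx2, 1.04 for Nek2 and 0.80 for Ckap2. Sgo1, the guardian of centromeric cohesin that works against separase cleavage, rose by 1.34, Top2a, which untangles sister chromatids, by 1.60 and Ect2, which sets the division plane, by 1.30. The mitotic transcription factor gene Foxm1 rose by 1.65, the CDK subunit gene Cks1b by 1.22 and the DNA repair gene Bard1 by 0.99. The lowest passing value was that of Usp1 (0.47), after Skp2 (0.54). The calls of Gmnn, Skp2 and Usp1 were lost without WT replicate 1. All 31 tested substrates were higher in both arrays labelled Id2 KO than in both WT arrays, against 27.9% of all tested genes, while Pttg1, also a substrate, was lower in both. Bub1 and Plk1 belong to both this list and that of the regulators.

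**Figure D4:**
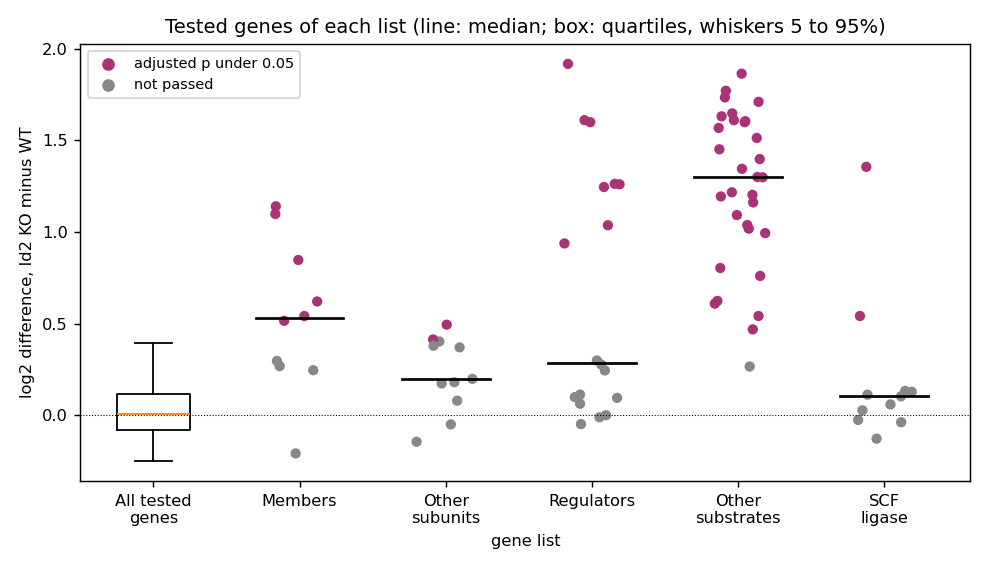
Log2 differences, Id2 KO minus WT, of the tested genes of each list, with a line at the list's median, purple for an adjusted p under 0.05 and grey for the rest; the box at the left gives the quartiles of all 11963 tested genes with whiskers from the 5th to the 95th percentile. Medians stand at 0.53 for the 10 members, 0.20 for the other subunits, 0.29 for the regulators, 1.30 for the other substrates and 0.10 for the SCF ligase; points are spread sideways at random, and Bub1, Plk1 and Skp2 each appear in a pair of lists.

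The SCF ligase, the other large ubiquitin ligase of the cell cycle, served as a comparison. Of 12 listed genes 11 were tested, 2 rose and none fell, with a median of 0.10, where 5.53% of all tested genes were called higher. The genes that rose encode F-box proteins whose levels follow the cell cycle. Ccnf, or cyclin F, rose by 1.36 (adjusted p = 8.14e-05) and Skp2, a substrate of Cdh1 that targets the CDK inhibitor p27, by 0.54 (adjusted p = 0.00656), a call lost without WT replicate 1 (adjusted p = 0.0641), which left 1. The core genes Skp1 (0.06), Cul1 (0.13) and Rbx1 (0.10) did not pass, nor did the F-box genes Fbxw7 (-0.04), Btrc (-0.03) and Fbxw11 (-0.13) or the exchange factor gene Cand1 (0.13).

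The profiles closest to Cdc20 over the 4 arrays, by Euclidean distance between log2 values centred on each gene's mean, were those of Rrm2 (distance 0.03), the replication kinase regulator Dbf4 (0.05) and Ttk (0.09). Dbf4 lay at 7.48 and 7.44 in WT, against 8.79 and 8.32 in Id2 KO. Closest to Espl1 were the histone gene H4c14 (0.03), Ckap2 (0.04) and Ska2 (0.09), a gene of the microtubule attachment complex at kinetochores. H4c14 belongs to a family of near-identical genes, so its probe set may read others. Rrm2, Ttk and Ckap2 were also among the fixed lists. These are descriptions over 4 arrays that split by group.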

How the data were processed

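The table deposited by the authors holds linear-scale intensity values, a single value for each probe set on each array, made with Affymetrix Expression Console and RMA, per the submitters' processing notes, which give no version or order. RMA subtracts background, equalises arrays at the probe level and summarises probe sets. Biotinylated cDNA was amplified with a NuGen Ovation kit, per the labels' protocols. No detection calls or genome build were given in the sources used here.

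The log2 of each intensity was taken with no pseudocount. The platform annotation gave 1 symbol to 21789 of 28853 probe sets, several to 1621 and none to 5443, and 19856 of 19938 genes matched RefSeq (GRCm38.p6). The listed symbol Skp1a was read as Skp1. The 11963 genes whose mean exceeded the 40th percentile (log2 6.77) were tested with limma 3.58.1 in R 4.3.3 (lmFit, eBayes; Id2 KO minus WT, two-sided, Benjamini-Hochberg over all tested genes, threshold 0.05). Intervals are 95% and unadjusted. The number of arrays limits the precision. In 20 simulations 200 of 11963 genes were changed and noise was drawn from the fitted model. The procedure recovered 99.3% at 2-fold and 4.04% of its calls were false. Because the noise followed the model of the test itself, these shares need not hold for the 4 arrays.

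Members, lists and tests were chosen with earlier results of these data known. The text names the 10 members, Id2, from each of the 4 pathway lists genes past the threshold and the 4 with the largest difference, and the 3 nearest profiles to Cdc20 and Espl1. Other genes named from the lists were chosen after their values were seen, as were Xist and Kdm5d.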

Additional observations from a re-analysis of the deposited data

How the results depend on the processing

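Over 12 other settings and 3 added after seeing the data, none of the 149 member differences changed sign, 141 kept their side of the threshold, 7 lost a call and 1 gained one. With each array left out in turn the count of changed members ran from 3 to 6, of all genes from 459 to 1171, of other subunits from 0 to 3, of substrates from 27 to 31, of regulators from 8 to 10 and of the SCF list from 1 to 2. WT replicate 1 was the array whose absence gave the lowest count for members, all genes, substrates and the SCF list. For the other subunits it shared the lowest count with Id2 KO replicate 1. Among the other subunits the count was 1 when probe sets of a gene were averaged, where Anapc5 did not pass. With genes above the 60th percentile 5 regulators passed of 12 tested. The replicate numbers are shared across groups without a stated pairing. With the replicate block 684 genes changed and 1 of the other subunits, 5 members passed, and Fzr1 did not (adjusted p = 0.066). The deviations of same-numbered arrays correlated at -0.144, and with crossed numbers 1380 genes, 7 members and 5 other subunits passed. Centring on the median of the tested genes moved the median difference of all genes by -0.05 on the log2 scale. Without X- and Y-linked genes 6 members passed, which does not separate sex from genotype. Detection calls were not used here, so background under a dim probe set such as Ube2c is unknown.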
